A study of Mus musculus with 20 samples.

Results

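The genes described here are 9 transcripts through which the circadian clock acts on other genes: the PAR bZIP activators Dbp, Tef and Hlf, the bZIP repressor Nfil3, the DEC repressors Bhlhe40 and Bhlhe41, the repressor Ciart, the ubiquitin protease Usp2 and the nuclear receptor Rora. They were taken by gene ID from a table of 54532 genes, and all 9 had enough counts to be tested among 15543 genes. The list was chosen by measured values of this series, among them the log2 difference between BAPN and water in the ascending aorta, so that difference is given below as a description without a test. RNA was sequenced from bulk ascending or descending thoracic aorta of C57BL/6J mice that had received water or BAPN (β-aminopropionitrile, an inhibitor of the lysyl oxidases that cross-link elastin and collagen) over 1 week. Each of the 4 groups (ascending water, ascending BAPN, descending water, descending BAPN) held 5 libraries, 20 in all. Sex, age, hour of tissue collection and any pooling of animals are not given in the sources used here, and nothing states that libraries are separate animals: each p-value is set against library-to-library spread only, which may be technical.

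The mammalian clock is a feedback loop in which BMAL1 (gene Arntl) and CLOCK bind E-boxes and drive their own repressors, the PER and CRY proteins. The same E-boxes drive a layer of output factors. DBP, TEF and HLF bind D-boxes and activate them, and NFIL3 (also called E4BP4) binds the same D-boxes and represses them. DEC1 (Bhlhe40) and DEC2 (Bhlhe41) occupy E-boxes as repressors, CIART (CHRONO) represses BMAL1 and CLOCK, and USP2 removes ubiquitin from clock proteins. RORα (Rora) and the repressors REV-ERBα and REV-ERBβ (Nr1d1, Nr1d2) compete for RORE elements in genes such as Arntl and Nfil3. Arteries hold such a clock in smooth muscle and endothelium, and transcripts of the output layer change with the hour of day, so the hour at which tissue is taken affects their level. Whether the BAPN and water groups were collected at the same hour is not given. A difference in hour therefore cannot be told apart from BAPN in the comparisons below, and its part was not tested.

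All 9 are protein-coding genes (positions on GRCm38, GENCODE annotation, exon lengths as the union of all annotated exons). Dbp (ENSMUSG00000059824) lies on chromosome 7 from 45705088 to 45710203 on the plus strand and has 2993 bases of exon. Tef (ENSMUSG00000022389) lies on chromosome 15 from 81802421 to 81826863, plus strand, with 7867 bases of exon. Hlf (ENSMUSG00000003949) is on chromosome 11 from 90336536 to 90390895, minus strand, with 6681 bases. Nfil3 (ENSMUSG00000056749), whose coding sequence is in a single exon, is on chromosome 13 from 52967209 to 52981073, minus strand, with 2026 bases. The DEC pair share chromosome 6: Bhlhe40 (ENSMUSG00000030103) runs from 108660629 to 108666925 on the plus strand with 4705 bases of exon, and Bhlhe41 (ENSMUSG00000030256) from 145858243 to 145865558 on the minus strand with 6720. Ciart (ENSMUSG00000038550) is on chromosome 3 from 95878503 to 95882251, minus strand, with 2261 bases. Usp2 (ENSMUSG00000032010) and Rora (ENSMUSG00000032238) are both on the plus strand of chromosome 9, from 44067021 to 44095627 with 4818 bases of exon and from 68653786 to 69388246 with 13071 bases.

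Clock elements were searched on both strands of promoters from 250 bases before to 50 after the RefSeq start (GRCm38.p6); 8 of the 9 genes were matched, Bhlhe40 not. The E-box CACGTG stood in 3 of the 8, Ciart, Bhlhe41 and Tef, against 8.09% of the 27025 genes searched (7.15% of 32851 promoters). The RORE TAGGTCA or AAGGTCA stood in 1 of the 8, Nfil3, against 8.11% of genes (7.16% of promoters). The related E-box CACGTT, in 5.44% of genes (4.68% of promoters), and the D-box TTATGTAA or TTACGTAA, in 1.23% of genes (1.06% of promoters), were in 0 of the 8; the motifs found did not overlap one another. These windows are shown because they carry the element through which the clock is known to reach output genes; capitals mark the motif. The Ciart window (chr3:95882252-95882364, minus strand, directly before the gene as GENCODE annotates it) holds 3 E-boxes that begin 116, 58 and 44 bases before the RefSeq start. The Bhlhe41 E-box (window chr6:145865556-145865585, minus strand) also lies before the annotated gene. Tef has 2 RefSeq starts with 1 E-box each: the upstream one (window chr15:81802534-81802563, plus strand) falls in an annotated Tef exon and the downstream one (window chr15:81811264-81811293, plus strand) in an intron. The Nfil3 RORE (window chr13:52981033-52981062, minus strand) falls in its annotated upstream exon and is read on the other strand, so that it appears as TGACCTA. A match describes the letters and shows no binding.
Ciart: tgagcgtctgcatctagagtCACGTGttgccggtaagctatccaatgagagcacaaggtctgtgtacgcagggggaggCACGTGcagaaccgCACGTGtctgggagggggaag
Bhlhe41: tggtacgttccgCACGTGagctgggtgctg
Tef, upstream start: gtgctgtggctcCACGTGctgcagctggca
Tef, downstream start: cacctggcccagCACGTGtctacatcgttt
Nfil3: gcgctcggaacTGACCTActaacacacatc

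Libraries held 15.7 to 23.3 M counts, of which the 9 genes took 0.0566%; the lowest count of any of them in a library was 6 (Ciart). Smooth muscle markers were high throughout (5 genes, summed to 17930 to 24080 CPM, counts scaled to 1000000 per library, in each library). Their sum was higher under BAPN in both regions. It was 18020 to 19730 CPM in ascending water and 21060 to 23330 in ascending BAPN. In the descending aorta it was 17930 to 20450 in water and 21620 to 24080 under BAPN. The part of this in the levels below was not tested. A group of 33 pseudogenes parted the libraries into 2 sets of 10. The set with higher levels held all 5 ascending BAPN libraries, ascending water 4 and 5, and descending water 1, 2 and 5; the set with lower levels held all 5 descending BAPN libraries, ascending water 1, 2 and 3, and descending water 3 and 4. Region and set therefore cannot be told apart within BAPN. BAPN libraries of the same number deviated together across genes in the 2 regions (correlations 0.15 to 0.27 over 11037 genes), so the descending BAPN values are not independent of the ascending ones that were known when the genes were chosen.

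Compared per length (RPKM, the CPM divided by the exon length in kilobases), Dbp and Tef stood highest in water; under BAPN Nfil3 stood highest when all exons were counted as length. In ascending water the order was Dbp at 57.3 ± 7.36 (SD, n = 5), Tef at 35.7 ± 2.25, Bhlhe40 at 11.7 ± 1.39, then Hlf, Nfil3, Rora and Bhlhe41 between 8.86 and 6.21, and last Usp2 at 2.26 ± 0.50 and Ciart at 1.39 ± 0.488. The neighbours Hlf and Nfil3, Nfil3 and Rora, Rora and Bhlhe41, and Usp2 and Ciart did not differ beyond their SDs. In ascending BAPN Nfil3 came first at 24.1 ± 5.18 RPKM, before Tef at 15.7 ± 1.96 and Dbp at 10.9 ± 2.49, and Ciart was last at 0.268 ± 0.080. Descending water began with Dbp at 46.8 ± 4.42, Tef at 35.5 ± 2.98 and Nfil3 at 11.9 ± 5.97. Nfil3 there did not differ beyond the SDs from the next gene, Bhlhe40 at 7.81 ± 1.17. Descending BAPN began with Nfil3 at 27.9 ± 6.37, Tef at 17.5 ± 2.12 and Rora at 10.5 ± 0.509, ahead of Dbp at 9.68 ± 2.59. There Rora and Dbp did not differ beyond their SDs. Under BAPN the order depended on the length used: with the longest transcript in place of all exons, Tef at 28.1 and 31.3 RPKM stood above Nfil3 at 24.1 and 27.9. In descending BAPN Dbp at 15.8 then stood above Rora at 12.7. With that length these neighbours did not differ beyond their SDs.

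**Figure D1:**
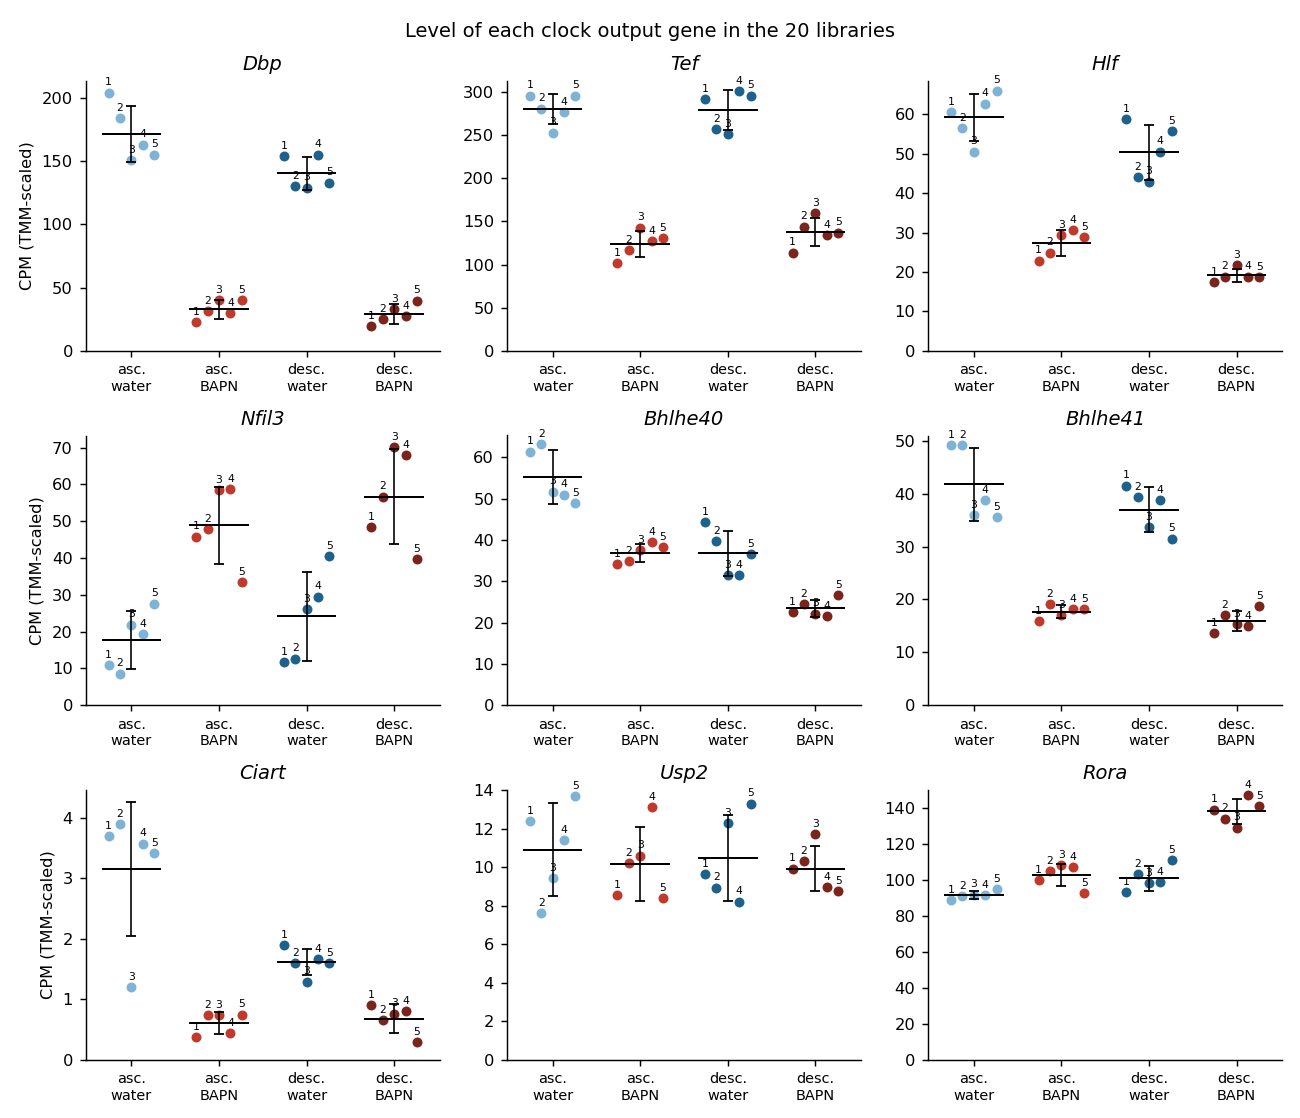
Level of each of the 9 genes in CPM (vertical axes, each from 0) in the 20 libraries; points are libraries with their number, horizontal lines are group means and bars are SDs over 5 libraries. For Dbp the water libraries lie between 129 and 204 CPM and the BAPN libraries between 19.5 and 40.2, whereas Usp2 covers the same range in all 4 groups.

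BAPN against water in the ascending aorta compares the 2 treatments in the region next to the heart. This contrast was among the results known when the genes were chosen, so its values stand without a test. Dbp, an activator of D-box genes, was at 204, 184, 151, 163 and 155 CPM in ascending water 1 to 5 and at 22.7, 31.1, 40.2, 29.6 and 40.1 in ascending BAPN. Every BAPN library lay below every water library, a log2 difference of -2.39 (SE 0.14), or 5.24-fold lower. Its relatives moved the same way by less: the log2 difference was -1.18 (SE 0.08) for Tef, with water at 253 to 296 CPM and BAPN at 102 to 143, and -1.12 (SE 0.09) for Hlf, with water at 50.5 to 66.0 and BAPN at 22.9 to 30.6. Nfil3, the repressor at the same D-boxes, was at 11.0, 8.61, 21.9, 19.3 and 27.6 CPM in water and at 45.8, 47.8, 58.5, 58.8 and 33.4 under BAPN. The groups did not overlap, and the log2 difference was 1.46 (SE 0.28).

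Both DEC repressors were lower in ascending BAPN, Bhlhe41 by more than Bhlhe40. Bhlhe41 had 35.6 to 49.2 CPM in water and 15.9 to 19.1 under BAPN, a log2 difference of -1.24 (SE 0.10), and Bhlhe40 had 49.0 to 63.2 and 34.2 to 39.5, a log2 difference of -0.58 (SE 0.09). Ciart, whose protein binds BMAL1, was at 3.69, 3.89, 1.20, 3.57 and 3.41 CPM in ascending water and at 0.378, 0.733, 0.732, 0.441 and 0.747 under BAPN, a log2 difference of -2.36 (SE 0.31). Ascending water 3 stood well below the other 4 water libraries for Ciart and still above all BAPN libraries; without it the log2 difference was -2.58. Usp2 overlapped between groups (7.61 to 13.7 and 8.40 to 13.1 CPM; log2 difference -0.10, SE 0.15). So did Rora, at 88.9 to 94.8 CPM in water and 92.8 to 108 under BAPN (log2 difference 0.16, SE 0.05). The counts in this contrast follow from how the genes were chosen, and nothing is read from them: 8 of the 9 genes had an adjusted p below the threshold of 0.05, where 6.34% of all tested genes did (2 higher, 3.44%, and 6 lower, 2.91%), and 7 of 9 did not overlap, where 7.51% did not; Rora was no longer among the 8 in 12 of the 20 fits that each left out 1 library. Of the 5 cardiomyocyte markers 2 were higher in ascending BAPN (summed 581 to 1006 CPM, against 377 to 845 in water), as were 1 of 5 smooth muscle and 1 of 4 tested skeletal muscle markers; their part in these values was not tested. The median log2 difference of the 9 genes was -1.12, and that of all tested genes was -0.01.

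In the descending aorta, further from the heart, the PAR bZIP activators were also lower under BAPN. Dbp was at 154, 130, 129, 155 and 133 CPM in descending water 1 to 5 and at 19.5, 24.9, 33.2, 27.7 and 39.6 in descending BAPN, with a wide gap between the groups. The log2 difference was -2.27 (SE 0.15; 4.82-fold lower; adjusted p = 5.43e-10, edgeR's quasi-likelihood test with Benjamini-Hochberg adjustment over all 15543 genes, as for all adjusted p-values of single genes below). Tef was at 292, 257, 251, 301 and 296 CPM in water and at 114, 144, 160, 134 and 137 under BAPN. No BAPN library reached the lowest water library, and the log2 difference was -1.02 (SE 0.08; adjusted p = 9.52e-09). Hlf was at 58.7, 44.0, 42.9, 50.5 and 55.7 CPM in water and at 17.5, 18.8, 21.8, 18.8 and 18.6 under BAPN. This was the largest fall among the 9 genes after Dbp, 2.64-fold (log2 difference -1.40, SE 0.09; adjusted p = 7.73e-10).

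Nfil3 rose in the descending aorta under BAPN, but its groups touched. It was at 11.7, 12.7, 26.2, 29.5 and 40.5 CPM in water and at 48.3, 56.7, 70.2, 68.0 and 39.8 under BAPN. Descending BAPN 5 lay just below descending water 5, and the other BAPN libraries lay above all water libraries. The log2 difference was 1.23 (SE 0.28; 2.35-fold higher; adjusted p = 0.00438).

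Both DEC genes fell as well. Bhlhe41 was at 41.5, 39.4, 33.7, 38.8 and 31.5 CPM in descending water and at 13.6, 17.0, 15.3, 15 and 18.7 under BAPN. The groups were far apart (log2 difference -1.21, SE 0.10; 2.32-fold lower; adjusted p = 2.26e-08). Bhlhe40 was at 44.4, 39.8, 31.5, 31.5 and 36.5 CPM in water and at 22.5, 24.4, 22.2, 21.5 and 26.7 under BAPN. Here too no libraries overlapped, with a smaller log2 difference of -0.64 (SE 0.09; 1.56-fold lower; adjusted p = 3.62e-05).

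Ciart fell from 1.89, 1.60, 1.29, 1.66 and 1.60 CPM in descending water to 0.897, 0.656, 0.762, 0.803 and 0.286 under BAPN. The groups did not overlap (log2 difference -1.25, SE 0.32; 2.38-fold lower; adjusted p = 0.0113), on 24 to 37 counts per water library and 6 to 16 per BAPN library. Within the pseudogene set with lower levels, which leaves 2 descending water libraries, the log2 difference of Ciart was -1.13 with an adjusted p of 0.176, and with the set as a term in the fit it was -1.11 with an adjusted p of 0.063. The other 7 called genes passed within that set too, where 2.87% of genes were called. Usp2, a rhythmic ubiquitin protease, showed no detected difference (8.21 to 13.3 CPM in water, 8.76 to 11.7 under BAPN; log2 difference -0.08, SE 0.15; adjusted p = 0.829). Rora, an activator at ROREs, was at 93.0, 103, 98.1, 98.7 and 111 CPM in water and at 139, 134, 129, 147 and 141 under BAPN. Every BAPN library was above every water library by a modest margin (log2 difference 0.45, SE 0.05; 1.37-fold higher; adjusted p = 8.52e-07).

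In the descending aorta, then, 2 of the 9 genes rose (Nfil3 and Rora), 6 fell and 1 (Usp2) did not pass. As the genes were chosen with results of the series known, these calls and their p-values are not independent of that choice. The background was 10.7% of tested genes called in either direction, 6.18% higher and 4.54% lower (4.54% and 5.62% with upper-quartile scaling). Groups of 7 of the 9 did not overlap, where 7.38% of tested genes did not. The median log2 difference was -1.02, against -0.00 over all tested genes. Because the tissue is bulk, fewer cells of a type and less RNA per cell cannot be told apart. Among 10 cell type lists of 5 markers, 1 smooth muscle marker was called higher and 1 fibroblast marker lower under BAPN in this region. No tested marker of the other 8 lists passed. Only 2 neuron, 3 T and innate lymphoid and 4 skeletal muscle markers of the 5 had enough counts to be tested.

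**Figure D2:**
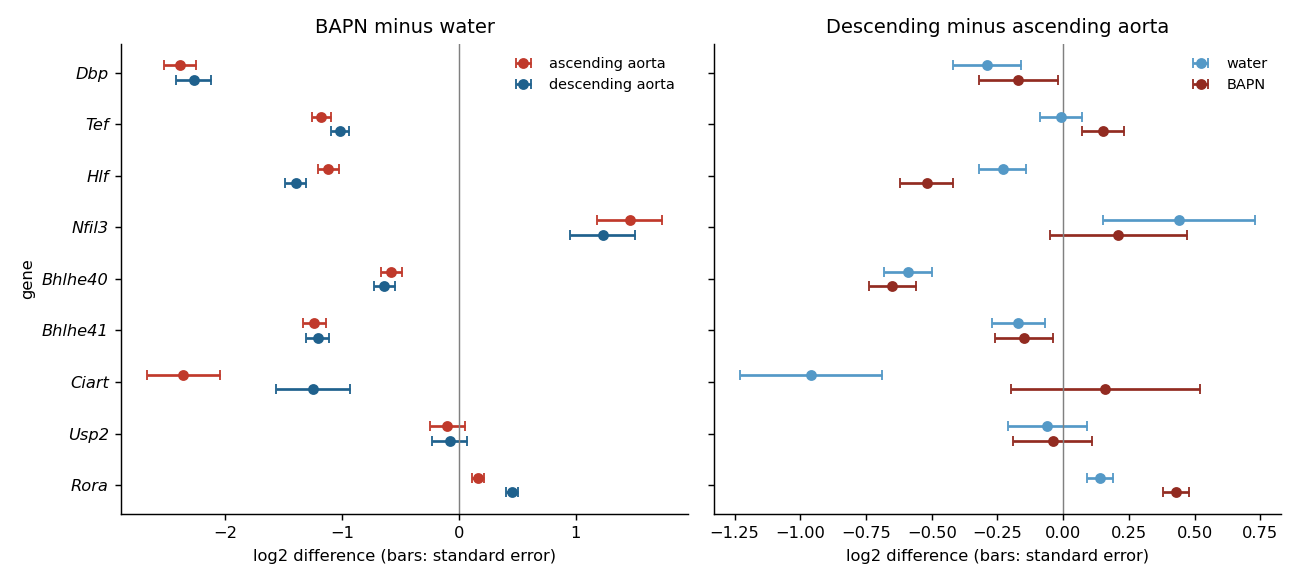
Log2 difference (horizontal axes) of each gene for BAPN minus water in the 2 regions, left, and for descending minus ascending aorta under the 2 treatments, right; points are edgeR estimates and bars their standard errors. Dbp is at -2.39 and -2.27 and Nfil3 at 1.46 and 1.23 on the left, and Bhlhe40 is at -0.59 and -0.65 on the right.

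Side by side, the BAPN differences of the 2 regions were of like size for most genes. Descending minus ascending, the difference between them was 0.12 (SE 0.20, log2) for Dbp, 0.16 (SE 0.11) for Tef, -0.23 (SE 0.39) for Nfil3, -0.06 (SE 0.13) for Bhlhe40, 0.03 (SE 0.14) for Bhlhe41 and 0.02 (SE 0.22) for Usp2. Beyond 2 standard errors were Hlf at -0.28 (SE 0.13), Ciart at 1.11 (SE 0.45) and Rora at 0.29 (SE 0.07). These values contain the ascending contrast and are a description. Over all 15543 genes, edgeR called 0 differences of this kind (1070 at an unadjusted p under 0.05; 41 of 30946 genes called with no filter on low counts), limma-voom called 0 (1046) and DESeq2 called 8 of 17734 genes (1238).

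Where exons of genes on opposite strands overlap, a read taken without regard to strand fits both genes. Such a read may be left uncounted, which would lower counts and per-length levels, or be credited to the wrong gene. The strand setting and the handling of such reads are not given in the sources used here, and their effect was not tested. Dbp shares 539 bases, 18.0% of its exons, with Sphk2, a sphingosine kinase gene. Sphk2 was at means of 31.4, 34.8, 34.4 and 37.5 CPM in ascending water, ascending BAPN, descending water and descending BAPN, a log2 difference under BAPN of 0.15 in the ascending and 0.12 (SE 0.05; adjusted p = 0.116) in the descending aorta, while Dbp fell. Bhlhe41 shares 1280 bases, 19.0% of its exons, with Gm43909, which had 202 counts in all libraries against 10512 for Bhlhe41. For Gm43909 the log2 difference under BAPN was -0.65 (SE 0.39) in the ascending and -1.70 (SE 0.42; adjusted p = 0.00891) in the descending aorta, where it fell as Bhlhe41 did, at means of 0.257 to 0.850 CPM over the 4 groups. For the other 7 genes the shared exon was at most 4.2% of their length.

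The 2 regions were next compared within each treatment. Both comparisons reuse ascending libraries of the contrast that was known when the genes were chosen. Their p-values and counts are therefore not independent of that choice. In water, Bhlhe40 was the 1 gene of the 9 whose groups did not overlap, where 20.1% of tested genes did not. It was at 61.4, 63.2, 51.7, 51.0 and 49.0 CPM in ascending water against 31.5 to 44.4 in descending water (log2 difference, descending minus ascending, -0.59, SE 0.09; adjusted p = 6.66e-06). Within the pseudogene sets the log2 difference of Bhlhe40 was -0.90 in the lower and -0.32 in the higher set. Ciart was 1.94-fold lower in descending water, with ascending water 3 (1.20 CPM) below all descending water libraries (log2 difference -0.96, SE 0.27; adjusted p = 0.0082); within the lower set the difference was the same at -0.96 with an adjusted p of 0.20. Hlf (-0.23, SE 0.09; adjusted p = 0.0499) and Rora (0.14, SE 0.05; adjusted p = 0.0365) passed narrowly with overlapping groups, and the call was lost in 13 and 6 of the 20 fits that left out 1 library. Dbp (log2 difference -0.29, SE 0.13; adjusted p = 0.111), Nfil3 (0.44, SE 0.29; adjusted p = 0.295), Bhlhe41 (-0.17, SE 0.10; adjusted p = 0.201), Usp2 (-0.06, SE 0.15; adjusted p = 0.817) and Tef (-0.01, SE 0.08; adjusted p = 0.974) did not pass. So 4 of 9 were called, where 27.3% of all tested genes were: 1 higher (12.1%) and 3 lower (15.2%). Without ascending water 1, ascending water 4 or descending water 2, 2 of 9 were called. Within the lower set 2 of 9 were called, Bhlhe40 and Nfil3 (16.9% of genes), and within the higher set 2 of 9, Bhlhe40 and Ciart (16.5%). The log2 difference of Nfil3 was 0.99 in the lower and -0.14 in the higher set.

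Under BAPN the descending aorta had more Rora and less Bhlhe40 and Hlf. Rora was at 129 to 147 CPM in descending BAPN and at 100, 105, 108, 107 and 92.8 in ascending BAPN, with no overlap (log2 difference 0.43, SE 0.05; adjusted p = 1.11e-07). Bhlhe40 was at 21.5 to 26.7 and at 34.2, 34.9, 37.6, 39.5 and 38.2 CPM, again without overlap (log2 difference -0.65, SE 0.09; adjusted p = 3.17e-06). For Hlf the ranges were 17.5 to 21.8 and 22.9 to 30.6 CPM (log2 difference -0.52, SE 0.10; adjusted p = 0.000157); with the pseudogene set as a term it was -0.32 with an adjusted p of 0.0674. These 3 of 9 genes were the ones called and also the ones without overlap, where 29.8% of tested genes were called (14.2% higher, 15.6% lower) and 21.4% did not overlap. Log2 differences of the others ran from -0.17 (Dbp) to 0.21 (Nfil3) and did not pass. In a fit of these 10 libraries alone with the replicate number as a block, 6 of 9 were called (31.5% of genes tested in it), the 3 added being Dbp (-0.19; adjusted p = 0.0277), Tef (0.14; adjusted p = 0.0129) and Nfil3 (0.20; adjusted p = 0.00396).

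Markers of other cell types moved with region. Summed over 5 markers each, fibroblast genes were at 3556 to 3955 CPM in ascending and 2050 to 2522 in descending libraries (4 of 5 called lower in both treatments), and cardiomyocyte genes at 377 to 1006 and 64.5 to 79.4 (5 of 5 called lower). Adipocyte genes were at 21.2 to 99.6 and 83.8 to 225 CPM (3 of 5 called higher in water, 2 under BAPN), Schwann cell genes at 43.9 to 51.0 and 32.2 to 42.4 (3 of 5 lower), neuron genes at 9.72 to 15.7 and 4.05 to 7.83 (both tested markers lower) and T and innate lymphoid genes at 4.85 to 8.90 and 2.95 to 5.78 (2 of 3 tested lower in water, 1 under BAPN). Skeletal muscle genes had 2 of 4 tested markers lower. No list of these had a marker at 0 in all libraries. Their part in the regional differences of Bhlhe40, Hlf, Rora and Ciart was not tested. Smooth muscle and macrophage markers had 0 of 5 called between regions, and endothelial markers 1 lower in water and 1 higher and 1 lower under BAPN.

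The 9 genes also differed in how much they varied between libraries of a group. The biological coefficient of variation, the spread beyond counting noise, was highest for Nfil3 at 0.311, percentile 94.3 of tested genes (median 0.0841) and 99.8 among the 500 genes nearest in level. Rora was the steadiest at 0.0553, percentile 16.2 overall and 50 among genes of its level. Between them stood Ciart at 0.265, Dbp at 0.157, Usp2 at 0.155, Bhlhe41 at 0.106, Hlf at 0.097, Bhlhe40 at 0.0945 and Tef at 0.091. Among the 500 genes nearest in level the order differed. Dbp was at percentile 98.6, Usp2 at 97.4, Tef at 94.4, Hlf at 94, Bhlhe41 at 92.8, Bhlhe40 at 92.6 and Ciart at 80.2. Of the sum of squares of log2 CPM, differences within groups took 97.1% for Usp2, 32.3% for Nfil3, 20.4% for Ciart and at most 9.4% for the other 6. Region took 46.4% for Bhlhe40 and 37.2% for Rora and at most 7.7% for the rest. Treatment took 86.6% or more for Dbp, Tef, Hlf and Bhlhe41, a share that includes the contrast used in choosing the genes.

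Nfil3 levels in the 2 regions went together by library number. Water 1 and 2 were the lowest of their group in both regions (11.0 and 8.61 CPM ascending, 11.7 and 12.7 descending), water 5 was the highest in both (27.6 and 40.5), and BAPN 5 was the lowest BAPN library in both (33.4 and 39.8). Over the 10 pairs of libraries of the same treatment and number, group-centred log2 CPM in the 2 regions had Pearson's r = 0.960 (exact permutation within treatment, two-sided p = 0.00104, adjusted over the 9 genes 0.00937) and Spearman's rho = 0.867 (exact permutation p = 0.0159, adjusted 0.0716); without the 2 pairs farthest from the median r was 0.959. Bhlhe41 had r = 0.757 (exact permutation p = 0.0172, adjusted 0.0387) and rho = 0.830 (exact permutation p = 0.00403, adjusted 0.0362), with r = 0.737 without the 2 farthest pairs. Dbp had r = 0.864 (exact permutation p = 0.0106, adjusted 0.0387), rho = 0.721 (exact permutation p = 0.0476, adjusted 0.143) and r = 0.723 without the 2 farthest pairs.

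For Tef r was 0.827 (exact permutation p = 0.0139, adjusted 0.0387) with rho = 0.6 (exact permutation p = 0.094, adjusted 0.212) and 0.463 without the 2 farthest pairs, so that relation rested on those pairs. Hlf (r = 0.661, exact permutation p = 0.0419, adjusted 0.0755) and Bhlhe40 (r = 0.569, exact permutation p = 0.18, adjusted 0.27) did not pass after adjustment. Usp2 (r = 0.249), Ciart (r = -0.0933) and Rora (r = 0.0814) did not pass either. Without the 2 farthest pairs r was 0.423 for Hlf, 0.197 for Bhlhe40, 0.262 for Usp2, -0.334 for Ciart and 0.678 for Rora, so the value for Rora depended on those pairs. Across all genes, same-numbered libraries deviated together in BAPN and not in every water pair (-0.03 to 0.30), so for water the shared number alone does not show a shared animal.

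**Figure D3:**
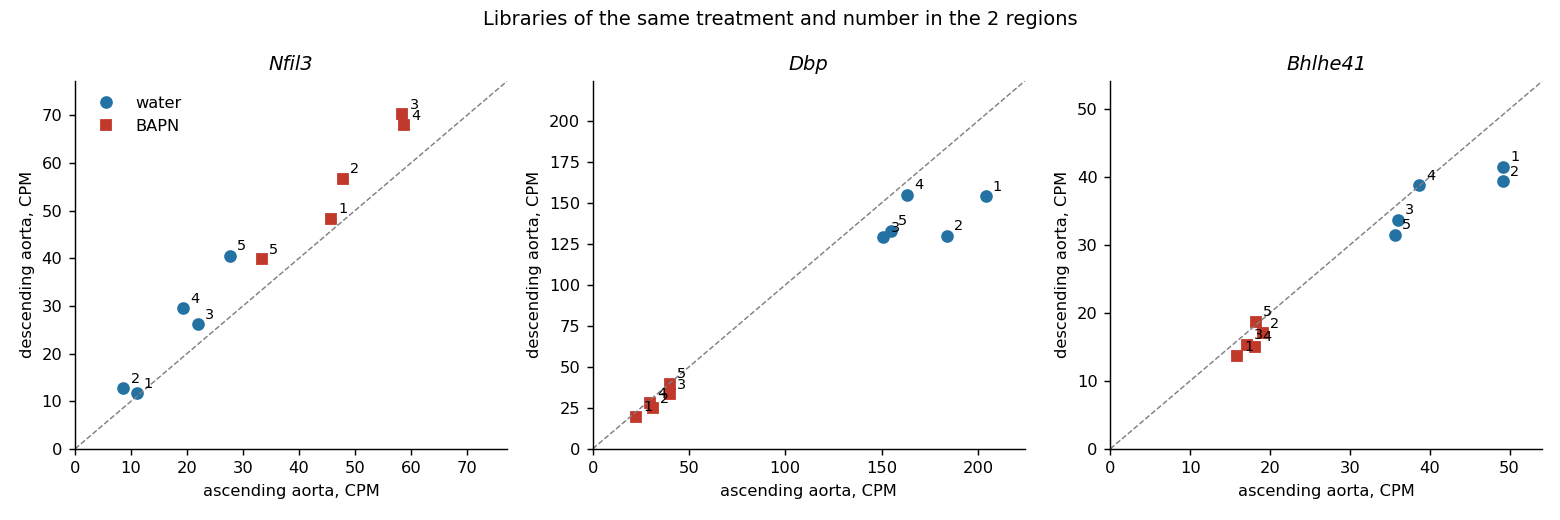
CPM in the ascending (horizontal axis) and descending aorta (vertical axis) of libraries with the same treatment and number, for Nfil3, Dbp and Bhlhe41; the dashed line marks equal levels and points carry the library number. In Nfil3, water 1 and 2 sit at the bottom left and water 5, at 27.6 and 40.5 CPM, lies close to BAPN 5, at 33.4 and 39.8.

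Within regions, pairs of the 9 genes were compared over 10 libraries with group means removed; of the 72 relations none had an adjusted p below 0.05 for r or rho. Relations with a positive r in both regions included Tef with Hlf (r = 0.845 ascending, 0.794 descending), Dbp with Tef (0.842 and 0.655) and Bhlhe40 with Bhlhe41 (0.856 and 0.616). Without the 2 libraries farthest from the median, r was 0.851 and 0.818 for Tef with Hlf, 0.570 and 0.678 for Dbp with Tef, and 0.656 and 0.253 for Bhlhe40 with Bhlhe41. For Nfil3 with the DEC genes r was negative in both regions. It was -0.829 and -0.652 for Bhlhe41 and -0.756 and -0.748 for Bhlhe40 (-0.612 and -0.533, and -0.435 and -0.512, without the 2 farthest libraries). Levels of Nfil3, Bhlhe41 and Dbp went together by library number across regions, so the 2 regions are not independent readings of a relation. For Dbp and Ciart r was 0.647 in the ascending and -0.612 in the descending aorta, and 0.578 and 0.565 without the 2 farthest libraries, so the negative sign rested on those libraries.

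Over all 20 libraries with group means removed, the genes whose pattern was most like Nfil3 were the heat shock genes Hspa1a (r = 0.961) and Hspa1b (0.951), near-identical copies whose reads may be split uncertainly, and Fosl2 (0.942), an AP-1 factor, among 10676 genes. Tef was closest to the clock repressor Per3 (0.885), then to the metallothionein Mt1 (0.847) and Il16 (0.829), and Dbp to Ktn1 (0.830), the REV-ERB gene Nr1d2 (0.824) and Dstn (0.824). Hlf was closest to Dnajb6 (0.891), Tspan4 (0.827) and Kin (0.798), Bhlhe40 to Emc2 (0.843), Zwint (0.814) and Cetn2 (0.803), and Bhlhe41 to Dpm2 (0.906), Mrpl18 (0.835) and Cfap36 (0.831). For Usp2 the nearest were Rnd1 (0.872), Ankrd1 (0.836) and Sfpq (0.812), for Rora they included Ube3a (0.853) and Senp5 (0.833), and for Ciart Abracl (0.730) and Crip1 (0.708). By Spearman's rho Nr1d2 ranked 31 for Dbp and Hspa1b 27 for Nfil3, and Abracl and Crip1 ranked 52 and 39 for Ciart. Per3 stayed at rank 1 for Tef. How many of all the most alike genes stayed among the first 3 is given below. All of these are descriptions of likeness over libraries that share tissue and treatment.

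Because the PAR bZIP factors and NFIL3 meet at the same D-boxes, their transcripts were set against each other per length. The sum of Dbp, Tef and Hlf divided by Nfil3 had a median of 10.4 in ascending water (7.30 to 24.8) and 6.70 in descending water (4.52 to 16.9). Under BAPN the median ratio was 1.23 in the ascending (1.05 to 2.08) and 1.00 in the descending aorta (0.868 to 1.70). Water 1 and 2 had the highest ratios in both regions (21.1 and 24.8 ascending, 16.9 and 13.1 descending), and every water library lay above every BAPN library. With the longest transcript as length, the medians were 17.1 and 11.1 in ascending and descending water and 2.03 and 1.68 in ascending and descending BAPN, again without overlap between water and BAPN. The ratio is a description of transcripts, built from genes chosen with their difference between BAPN and water known.

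**Figure D4:**
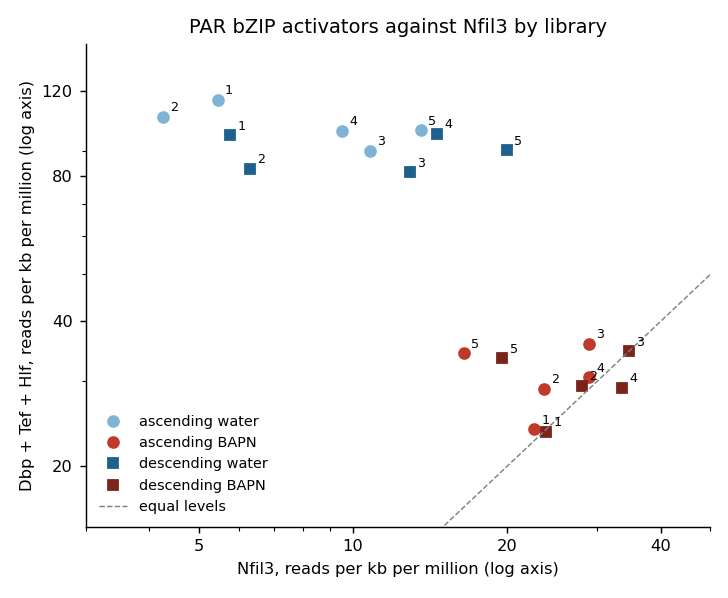
Summed level of Dbp, Tef and Hlf (vertical log axis, RPKM) against Nfil3 (horizontal log axis, same unit) in each of the 20 libraries, with the library number; the dashed line marks equal levels. Water libraries lie at 81.4 to 115 on the vertical axis, and BAPN libraries at 23.6 to 35.9, with ratios of 0.868 to 2.08; the place of the line depends on the exon lengths used (ratios of 1.46 to 3.43 under BAPN with the longest transcript).

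Other genes of the clock were counted from lists drawn up with results of the series known. Of 15 tested core clock genes, 4 rose and 4 fell in the descending aorta under BAPN, with a median log2 difference of 0.01. Arntl, which encodes BMAL1, rose from 9.57 ± 1.86 to 36.4 ± 5.42 CPM (SD, n = 5; log2 difference 1.92, SE 0.16; adjusted p = 1.33e-08), and Cry1, a repressor of BMAL1, from 4.40 ± 0.392 to 11.7 ± 2.98 (1.40, SE 0.15; adjusted p = 1.23e-06). Per3 fell from 48.0 ± 5.69 to 17.3 ± 2.81 CPM (-1.47, SE 0.12; adjusted p = 9.52e-09) and Nr1d2 from 180 ± 16.7 to 90.6 ± 14.4 (-0.99, SE 0.09; adjusted p = 1.28e-07). The other called genes were Clock (0.44) and Npas2 (1.33), which encode partners of BMAL1, and Per2 (-0.43) and Nr1d1, which were lower.

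The same genes recur in the lists by element. Of 6 genes with RORE-driven transcription, as is known for Nfil3, 4 rose (Arntl, Clock, Npas2, Cry1) and 1 fell (Nr1d1), with a median log2 difference of 0.88 in the descending aorta. Of 6 tested clock genes with known D-boxes, targets of Dbp, Tef, Hlf and Nfil3, 1 rose (Cry1) and 4 fell (Per2, Per3, Nr1d1, Nr1d2), with a median of -0.45. Outside the clock loop, the metabolic targets known for the PAR bZIP factors moved little: of 5 tested, 1 was called, the pyridoxal kinase gene Pdxk (-0.23, SE 0.08; adjusted p = 0.0474), and the list's median was -0.02. Among 10 other rhythmic genes of many tissues 4 rose, Leo1, Pik3r1, Fkbp5 and Cdkn1a, and 2 fell, Tspan4 and Wee1.

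Bhlhe40 and Bhlhe41 are also induced by low oxygen and belong to a wider helix-loop-helix family, and Nfil3 and the PAR factors to the bZIP family. Of 12 hypoxia-induced genes 1 rose under BAPN in the descending aorta (the glucose transporter Slc2a1, 0.19; adjusted p = 0.0354) and 1 fell (Egln3, -0.45; adjusted p = 0.00464), with a median of 0.03. Of 9 tested Hes, Hey and Id genes 0 were called by edgeR in either direction (median -0.15), and of 9 other bZIP genes of the C/EBP and CREB kind 1 was lower (Atf5, -0.23; adjusted p = 0.00609). Between regions, where Bhlhe40 was lower in the descending aorta, 2 of the 12 hypoxia genes were higher and 4 lower in water, and 3 were higher and 3 lower under BAPN.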

How the data were processed

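Bulk RNA of 20 libraries was measured as raw counts of reads per gene, deposited by the authors; the submitters' processing notes list the genome build mm10 and the tools HTSeq 0.6.1, STAR 2.5 and fastp, while settings and annotation are not given in the sources used here. The 20 per-library files equal the series table. Symbols came from GENCODE on GRCm38 (37 of 54532 gene IDs had none). The 9 genes, the other gene lists and the comparisons were chosen with earlier results of these data known. Counts were fitted with edgeR 4.0.16 (R 4.3.3; TMM scaling, filterByExpr with a minimum count of 10 and a minimum total of 15, 1 coefficient per group, 16 residual degrees of freedom, quasi-likelihood test, Benjamini-Hochberg over 15543 genes, threshold 0.05), after a check on simulated data. CPM are scaled by TMM, and the SE is the size of the log2 difference over the square root of F. Genes named were the 9, up to 4 genes per list with the smallest p in the descending BAPN contrast, the 3 most alike per gene (mean of at least 5 CPM; 2 of these are not reported here), and a few singled out after their values were seen (Sphk2, Gm43909 and list members named as called).

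Numbers in the titles paired the BAPN libraries of the 2 regions (correlations of same-numbered libraries 0.19, 0.16, 0.18, 0.27 and 0.15, each the highest with its own number) but not the other groups. Alternatives were DESeq2 1.42.0, limma 3.58.1 voom, other scaling and filters, the replicate block, the pseudogene sets and leaving out each library. Promoter sequences are RefSeq's. Depth is given in the text, and for the lowest gene, Ciart, counting error is large.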

Additional observations from a re-analysis of the deposited data

Results flagged for a closer look

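Ciart in ascending water replicate 3 was at 1.20 CPM, far below the other 4 libraries of its group at 3.41 to 3.89; the gap took 0.822 of the group's range. Of the 36 sets of 5 libraries examined (9 genes in 4 groups) this was the 1 that stood apart by Dixon's criterion, and chance alone would mark about 1 in 20 such sets. Its 29 counts were the lowest of the group for this gene. Why it is low was not tested.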

How the results depend on the processing

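No direction of a called difference reversed under the alternatives run. In the descending aorta under BAPN, Ciart alone lost its call, in 2 of the other settings, both with the pseudogene sets; 88 of 90 values and all 180 with 1 library left out kept their side of the threshold. Between regions in water, 2 of the 9 genes were called within the lower and 2 within the higher pseudogene set, and 2 to 4 when 1 library was left out (2 without ascending water 1, ascending water 4 or descending water 2). There the numbers were not shown to pair libraries: 2 of 5 correlated best with their own number, and a fit of the 2 groups with the replicate block, chosen after seeing the data, called 7 (28.4% of genes). Under BAPN the same added replicate block called 6 between regions; without descending BAPN 1, Tef also passed (0.22, adjusted p = 0.0414). The replicate block over all 4 groups gave 8, 8, 4 and 3 of 9 and changed no other call. With the longest transcript as length, 5 of 9 genes kept their rank in ascending BAPN and 5 in descending BAPN, and 9 in each water group. That length, for the ratio chosen after seeing the data, moved its median by more than 1 SD under BAPN (to 2.03 and 1.68). By Spearman's rho, 14 of the 27 most alike genes stayed among the first 3. Shares of all genes called moved by over 1.5 times: in the ascending BAPN contrast from 986 genes to 542 with a set term and 483 within a set, in the descending from 1667 to 430 within a set, and between regions from 4243 to 2601 and 2537 within sets in water and from 4626 to 2755 with a set term under BAPN. With no filter on low counts 30946 genes were tested, and the shares fell in all 4 contrasts. They were 3.07% (951 genes) and 4.68% (1449) for BAPN in the ascending and descending aorta. Between regions they were 13.7% (4234) in water and 15% (4639) under BAPN. Within-set values could not be had between regions under BAPN. Depth limits Ciart most, with 6 to 74 counts per library.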
